A study of Mus musculus with 3 samples.

Results

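The genes described here are 10 genes of the axon degeneration machinery, chosen by name from the 41388 genes in the deposited tables: the kinase genes Map3k12 and Map3k13, the Jun N-terminal kinase genes Mapk8, Mapk9 and Mapk10, the scaffold gene Mapk8ip3, the NAD hydrolase gene Sarm1, and Nmnat1, Nmnat2 and Nmnat3, which encode the enzymes that make NAD. All 10 were found by symbol. RNA came from dorsal root ganglion cells of mouse embryos at 14.5 days post coitum, sorted for the fluorescence of a Ret-EGFP reporter, and was read as 3 pooled libraries of 1 group, called A, B and D. Library A pooled 100 ganglia of 5 embryos (3 male and 2 female), library B 100 ganglia of 6 embryos (2 male and 4 female) and library D 80 ganglia of 4 embryos (3 male and 1 female), all from segments T11 to S1. The strain label is C57BL/6 and the genotype label Tg(Ret-EGFP)SJ, while the series design calls the animals heterozygotes with EGFP knocked into the Ret locus, so whether both Ret alleles were intact is not known for any library. The strain and reporter were shared by all libraries, and each is a pool of animals. No unsorted, EGFP-negative, injured or factor-deprived sample was analysed here, so levels are described and genes are compared with one another, not conditions.

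Injured axons, and embryonic sensory neurons that lose their target-derived growth factor, break down by an active programme. In its kinase branch, dual leucine zipper kinase (DLK, from Map3k12) and leucine zipper kinase (LZK, from Map3k13) activate the kinases MKK4 and MKK7, which activate the JNKs, and scaffold proteins of the JIP family hold these kinases together and tie them to axonal transport. In its metabolic branch, SARM1 destroys NAD when its substrate balance shifts, and NMNAT2, a short-lived enzyme carried down the axon, holds SARM1 in check by turning its activator NMN into NAD. NMNAT1 is the nuclear and NMNAT3 the mitochondrial form of that enzyme.

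Libraries A, B and D held total counts of 20181558, 20355302 and 29061086. The sorted cells carried the markers of sensory neurons: 18 of 18 listed markers averaged at least 1 TPM (a length-normalised level, the count per base of gene length scaled to 1000000 in each library), and their median was 470 ± 36.6 TPM (SD, n = 3, as for every ± below). Of 13 glial markers 10 did so, all but Gfap, Foxd3 and Dhh, with a median of 11.9 ± 5.25 TPM. Glial levels summed to 628, 1013 and 1020 TPM in A, B and D, and S100b (343 TPM) and Fabp7 (310 TPM) had the highest means. Mesenchymal, macrophage and endothelial medians lay between 0.400 and 2.83 TPM, with the mesenchymal sum at 71.1 TPM in B and 19.3 and 19.5 TPM in A and D. Of the 7 genes in the spinal cord list, Olig2, Mnx1, Lbx1 and Nkx6-1 had no counts. Chat had 3, 1 and 2 counts and Pax2 had 0, 1 and 2 in A, B and D, while Slc5a7 averaged 6.13 ± 2.73 TPM. Library D stood apart in 2 ways that touch the values below. Its mitochondrial genes took 2.75% of counts against 1.72% in A and 1.14% in B, and its counts leaned to short genes: in the shortest tercile of the 13530 genes tested, the median difference of D from the mean of the other libraries was 0.28 on the log2 scale, and in the longest tercile -0.15. Of the 10 genes, 8 lie in the longest tercile and the other two, Nmnat1 and Nmnat3, in the middle one. Erythroid genes summed to 362 TPM in D, 194 in A and 108 in B. With mitochondrial and hemoglobin genes left out of the TPM total, the median level of the 10 genes was 16.3 ± 2.82 TPM. With them it was 15.7 ± 2.93 TPM. Beyond this, the part of glial, mesenchymal, erythroid or mitochondrial RNA in the differences below was not tested.

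By mean TPM the set spanned more than 100-fold, and less than that with the longest transcript as the length (Nmnat2 93.7 TPM, Nmnat3 1.11 TPM). By TPM, Nmnat2 was the highest of the 10 genes and Nmnat3 the lowest in each of the 3 libraries, and Mapk10 was second in each. The mean order was Nmnat2, Mapk10, Mapk8ip3, Mapk9, Sarm1, Mapk8, Map3k12, Nmnat1, Map3k13, Nmnat3. Of the genes, 9 of 10 averaged at least 1 TPM, against 93.2% of the genes tested for variation and 33.6% of all deposited genes. The exception, Nmnat3, averaged 0.536 ± 0.225 TPM, and 1.11 ± 0.464 TPM with the longest transcript as its length, which makes the count 10 of 10. At least 10 TPM was reached by 6 of 10, against 52.9% of the genes tested. The median of the 10 mean levels was 15.7 TPM, beside 11.4 TPM over the genes tested, so the set as a whole lay close to an ordinary expressed gene. The order was taken from these same libraries, so the steps in it are described and not tested. Neighbours in this order differed beyond their spread in 6 of 9 cases, meaning the same direction in 3 of 3 libraries and a mean log2 ratio larger than its SD. The exceptions were Mapk8ip3 and Mapk9 (log2 ratio 0.13 ± 0.25), Sarm1 and Mapk8 (-0.05 ± 0.65) and Map3k12 and Nmnat1 (0.26 ± 0.81). The first of these depends on the length used: Mapk8ip3 exceeded Mapk9 in 3 of 3 libraries with the longest annotated transcript as the length (0.59 ± 0.25) and with unshared exonic bases (0.46 ± 0.25). With unshared bases Mapk8 and Map3k12 no longer differed beyond their spread (0.91 ± 1.06). These are bulk libraries, in which fewer cells of a type and less RNA per cell cannot be told apart.

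**Figure D1:**
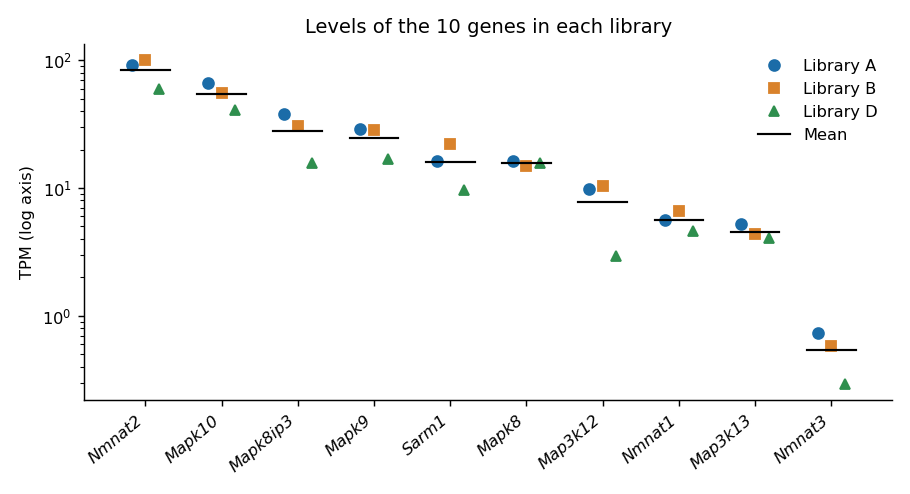
Levels of the 10 genes in TPM on a log axis, ordered by their mean, with 1 symbol per library and a bar at the mean of 3. Nmnat2 and Mapk10 lead in every library and Nmnat3 stays below 1 TPM, while Map3k12 has the widest gap between library D and the others.

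The kinases at the head of the cascade were among the lower members. Map3k12 (ENSMUSG00000023050, chromosome 15, 102497649 to 102517064, minus strand, GRCm38.p2), the gene of DLK, reached 9.88, 10.3 and 2.92 TPM in A, B and D, from 673, 739 and 339 counts. Libraries A and B were alike, and D lay 3.54-fold below B, with more reads in total and fewer of this gene. Map3k13 (ENSMUSG00000033618, chromosome 16, 21891969 to 21931877, plus strand), the gene of LZK, the closest relative of DLK, stood at 5.27, 4.34 and 4.05 TPM in A, B and D, from 268, 232 and 352 counts. It was even across the libraries, with D only slightly the lowest.

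DLK transcripts exceeded LZK transcripts in A (1.87-fold) and B (2.38-fold), but not in D, where the ratio was 0.719. The log2 ratio averaged 0.56 ± 0.91 and did not differ from 0 beyond the spread of the libraries (positive in 2 of 3, exact sign-flip permutation test, two-sided p = 0.5, Benjamini-Hochberg adjusted p = 0.5 over 8 ratios). Without D it was 1.08. With 3 libraries this test cannot go below 0.25, so none of the 8 ratios could pass 0.05. The ratio also rests on what counts as the length of Map3k12. Of its 8986 exonic bases, 19.3% also lie in other genes, 1571 of them in Pcbp2 on the opposite strand. The tables hold no reads from such stretches as far as this can be seen: each of the 738 genes with no exonic base of its own had 0 counts in every library, the 238 covered only from the opposite strand included, while 15905 of the 40650 other genes did. With only the 7256 bases of its own as the length, and likewise for every other gene, the level of Map3k12 was 9.21 ± 4.96 TPM and the log2 ratio to Map3k13 0.86 ± 0.91, negative still in D (-0.18). With the longest annotated transcript as the length (5185 bases for Map3k12, 8583 for Map3k13) Map3k12 averaged 12.0 ± 6.44 TPM and the log2 ratio was 1.71 ± 0.91 and positive in all 3 libraries (0.67 in D). The mean direction held under each of these lengths, and its size did not.

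**Figure D2:**
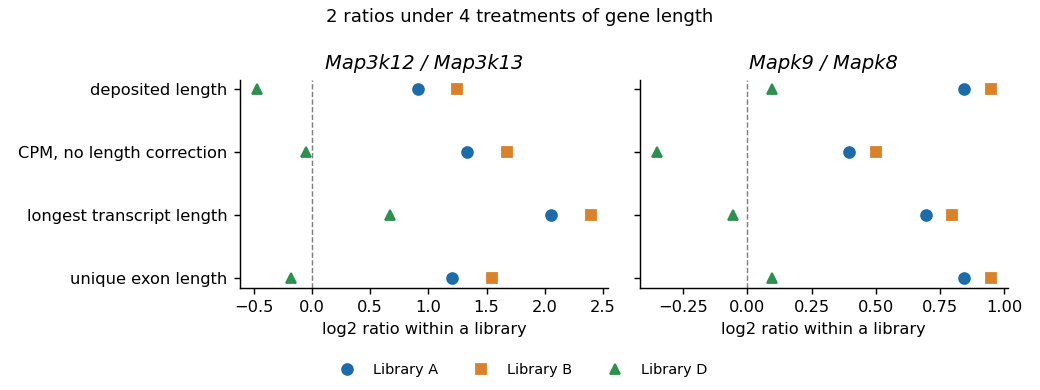
Log2 ratio of Map3k12 to Map3k13 (left) and of Mapk9 to Mapk8 (right) in each library under 4 treatments of gene length, with a dashed line at equal levels. Library D lies to the left of the line in 5 of 8 rows, whereas A and B lie to the right of it in each.

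Among 12 other kinases of the MAP3K level that can feed the JNKs, 11 averaged at least 1 TPM, with a list median of 2.85 ± 0.327 TPM. Map3k1, which encodes MEKK1, averaged 21.9 ± 1.78 TPM and stood above Map3k12 in every library, by a log2 ratio of 1.71 ± 0.99. Map3k5, the gene of the stress kinase ASK1, averaged 5.40 ± 0.714 TPM and Map3k7, the gene of TAK1, 4.80 ± 1.22 TPM. The lowest were Map3k20 (1.03 ± 0.483 TPM) and Map3k21 (0.416 ± 0.161 TPM). The kinases placed above DLK were all present: Map4k4 at 11.7 ± 1.91 TPM, Tnik at 7.30 ± 3.35 TPM and Mink1 at 2.79 ± 1.33 TPM. Genes that govern DLK protein turnover were present too. Mycbp2, the gene of the ubiquitin ligase PHR1, averaged 17.4 ± 6.61 TPM, its partner Fbxo45 13.8 ± 0.954 TPM, the deubiquitinase gene Usp9x 5.43 ± 2.68 TPM, and Skp1a, a general ligase subunit, 1215 ± 236 TPM.

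The middle step was uneven. Map2k4, the gene of MKK4, stood at 68.9, 52.6 and 20.4 TPM in A, B and D. Map2k7, the gene of MKK7, stood at 12.2, 15.6 and 7.95 TPM in A, B and D. Map2k4 was thus the higher in each library, by a log2 ratio of 1.87 ± 0.58. Both genes were lowest in D, as Map3k12 was and as 58.9% of the genes tested were by TPM.

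For the highest and the lowest member by mean TPM in the JNK and NMNAT families 1 promoter window each is shown, since the distance between these members is the main contrast within each family. Each runs from 250 bases before to 50 bases after a RefSeq start (GRCm38.p6), and capitals mark the cAMP response element TGACGTCA, which ATF2 and Jun family proteins can bind, or its half-site TGACG on either strand (CGTCA).
Mapk10, chr5:103211285-103211584, minus strand: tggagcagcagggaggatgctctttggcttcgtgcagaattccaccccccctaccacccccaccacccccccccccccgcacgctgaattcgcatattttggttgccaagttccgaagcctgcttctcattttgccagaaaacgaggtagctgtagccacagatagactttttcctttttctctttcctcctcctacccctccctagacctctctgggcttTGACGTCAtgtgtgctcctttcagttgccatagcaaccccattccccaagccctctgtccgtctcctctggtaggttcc
Mapk8, chr14:33447109-33447408, minus strand: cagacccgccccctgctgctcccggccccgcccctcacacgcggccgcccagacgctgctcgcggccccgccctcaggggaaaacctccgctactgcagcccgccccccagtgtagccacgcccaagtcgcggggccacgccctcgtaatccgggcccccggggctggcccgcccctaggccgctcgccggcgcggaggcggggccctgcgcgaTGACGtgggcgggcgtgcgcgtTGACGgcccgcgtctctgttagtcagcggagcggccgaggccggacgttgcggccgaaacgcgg
Nmnat2, chr1:152954851-152955150, plus strand: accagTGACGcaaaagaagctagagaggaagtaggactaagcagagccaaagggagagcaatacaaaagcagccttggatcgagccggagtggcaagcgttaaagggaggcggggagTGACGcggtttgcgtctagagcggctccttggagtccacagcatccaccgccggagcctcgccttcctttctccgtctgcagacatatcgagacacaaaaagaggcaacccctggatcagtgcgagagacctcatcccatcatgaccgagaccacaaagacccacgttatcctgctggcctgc
Nmnat3, chr9:98296320-98296619, plus strand: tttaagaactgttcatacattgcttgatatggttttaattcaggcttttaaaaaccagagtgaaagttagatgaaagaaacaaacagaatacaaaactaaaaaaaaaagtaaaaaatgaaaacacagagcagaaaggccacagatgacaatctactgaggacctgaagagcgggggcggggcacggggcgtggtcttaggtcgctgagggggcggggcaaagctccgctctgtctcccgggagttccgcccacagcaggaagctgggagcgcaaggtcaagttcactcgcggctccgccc
The full element occurred in 1 of 14 windows of the 10 genes, that of Mapk10 shown above, where it begins at position -29 from the start, and in 1.79% of all 32851 windows. The half-site occurred in windows of 7 of 10 genes (Map3k12, Mapk8, Mapk9, Mapk10, Mapk8ip3, Sarm1 and Nmnat2) and of 23.0% of all genes. Every full element also holds half-sites on both strands, which are the same letters. The AP-1 motif TGANTCA was in none of the 14 windows and in 7.81% of all. Of the windows shown, G and C made up 55.3% for Mapk10, 77.7% for Mapk8, 56.3% for Nmnat2 and 49.0% for Nmnat3. The median was 59.8% over the 14 windows of the 10 genes and 52.7% over all windows. The part of G and C content in the half-site counts was not tested. Map3k12, Mapk8, Mapk10 and Nmnat1 each have 2 windows, and the deposited counts do not tell which start was used. The windows of Mapk10 and Mapk8 that are not shown, with 32.7% and 34.3% G and C, held neither the full element nor the half-site.

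The JNK genes together summed to 112, 99.3 and 73.7 TPM in A, B and D, and Mapk10 made up most of it. Mapk10 (ENSMUSG00000046709, chromosome 5, 102907948 to 103211334, minus strand), the gene of the neuronal kinase JNK3, reached 66.8, 55.9 and 41.1 TPM in A, B and D. It was the highest JNK gene in each library and took 57.2 ± 2.10% of the family's TPM. Mapk9 (ENSMUSG00000020366, chromosome 11, 49846751 to 49886421, plus strand), the gene of JNK2, stood at 29.0, 28.6 and 16.8 TPM in A, B and D, a share of 25.8 ± 2.97%. Library D was again the lowest, and A and B were alike. Mapk8 (ENSMUSG00000021936, chromosome 14, 33377898 to 33447158, minus strand), the gene of the widely expressed kinase JNK1, stood at 16.2, 14.8 and 15.8 TPM in A, B and D. By TPM it varied least of the 10 genes, with a coefficient of variation of 4.49%, and it alone was not lowest in D. On the TMM-normalised log2 CPM scale it stood 0.36 above the other libraries in D. There Nmnat1, Map3k13, Mapk10 and Nmnat2 had smaller largest differences (0.20, -0.25, 0.30 and -0.35).

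Within libraries, Mapk10 exceeded Mapk8 by 4.13-fold in A, 3.78-fold in B and 2.61-fold in D. The log2 ratio of 1.78 ± 0.35 lay beyond its spread (3 of 3 libraries, exact p = 0.25, adjusted p = 0.286). Mapk10 also exceeded Mapk9, by 2.30-fold, 1.96-fold and 2.44-fold in A, B and D, with a log2 ratio of 1.15 ± 0.17 (3 of 3, exact p = 0.25, adjusted p = 0.286). These 2 orders held in each library under all 4 treatments of length. Mapk9 and Mapk8 were closer. Their log2 ratios of 0.84, 0.95 and 0.09 in A, B and D gave a mean of 0.63 ± 0.47 (3 of 3, exact p = 0.25, adjusted p = 0.286). As CPM, counts per 1000000 with no length correction, it fell to 0.18 ± 0.47 and turned to -0.35 in D, and with the longest transcript as the length it was -0.06 in D, so an order of JNK2 over JNK1 was not shown for D.

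**Figure D3:**
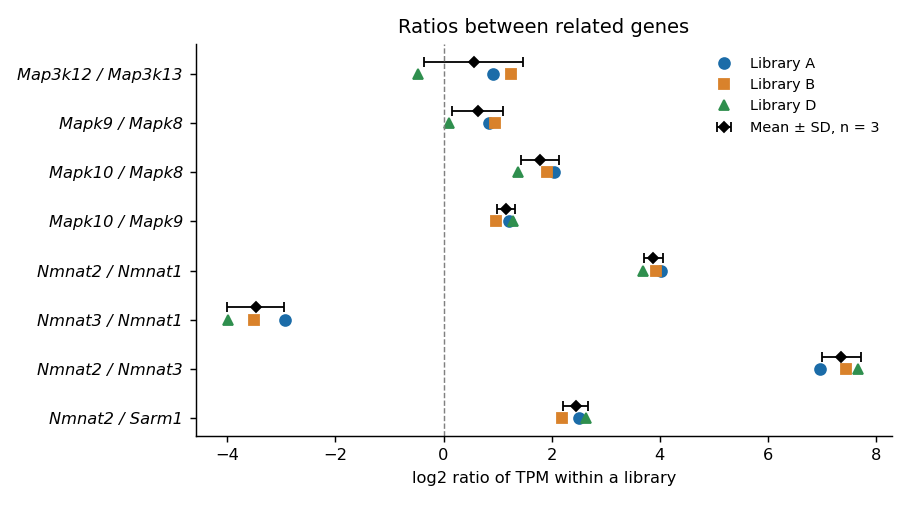
Log2 ratio of TPM within a library for the 8 pairs of related genes, with 1 symbol per library, the mean ± SD over 3 libraries as a black diamond, and a dashed line at equal levels. The Nmnat and Mapk10 ratios lie to one side of the line in every library, and the Map3k12 to Map3k13 ratio lies on both sides.

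Mapk8ip3 (ENSMUSG00000024163, chromosome 17, 24892153 to 24936977, minus strand) encodes JIP3, the scaffold that joins DLK and JNK to the transport motors. It reached 37.9, 30.7 and 15.6 TPM in A, B and D, from 4180, 3564 and 2932 counts. Library D lay 2.43-fold below A although it was the most deeply read. The gene shares 20.4% of its 14558 exonic bases with other genes, among them 1557 with Eme2 and 1309 with Mrps34. Mrps34, on the opposite strand, had 321, 414 and 56 counts in A, B and D, and so was low in the same library. Eme2, on the same strand, had 216, 156 and 135. Pcbp2, which shares bases with Map3k12, went the other way, with 760, 873 and 1528. With the unshared bases alone as the length, Mapk8ip3 averaged 34.0 ± 13.8 TPM, and with the longest transcript 50.4 ± 20.3 TPM against 28.1 ± 11.4 TPM. Of the related scaffold genes, Mapk8ip2, which encodes JIP2, was the highest, at 95.1, 125 and 44.9 TPM in A, B and D. It exceeded Mapk8ip3 in each library, by a log2 ratio of 1.63 ± 0.36. Spag9, the gene of JIP4, averaged 24.4 ± 13.0 TPM, Sh3rf1, the gene of the scaffold POSH, 20.8 ± 2.77 TPM and Mapk8ip1, the gene of JIP1, 16.1 ± 3.93 TPM. Mapk8ip3 and Spag9 did not differ beyond their spread (log2 ratio 0.23 ± 0.45).

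Of the 5 phosphatase genes that act on JNKs, all averaged at least 1 TPM, and Dusp8 was the highest at 86.5 ± 23.7 TPM. Dusp10 followed at 20.3 ± 2.53 TPM, Dusp1 at 8.22 ± 0.530 TPM, Dusp4 at 3.24 ± 0.853 TPM and Dusp16 at 1.14 ± 0.670 TPM. All 8 JNK substrates and downstream transcription factors averaged at least 1 TPM (list median 26.8 ± 2.91 TPM) and were led by the microtubule regulators Stmn2 (8246 ± 1230 TPM) and Dcx (70.5 ± 20.7 TPM), followed by Jun at 37.4 ± 4.93 TPM. At the low end, Elk1 averaged 3.62 ± 1.14 TPM, and Atf3, an injury-induced factor, stood at 2.33, 4.87 and 0.974 TPM in A, B and D. Of the 13 genes of the apoptotic arm, all averaged at least 1 TPM, with a list median of 5.61 ± 1.19 TPM. Bax, the pore-forming death effector, led at 424 ± 58.9 TPM, and the survival gene Bcl2l1 averaged 144 ± 56.5 TPM. Apaf1 (1.85 ± 0.490 TPM) and Bak1 (1.10 ± 0.524 TPM) were the lowest.

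Among the NMNAT genes, 1 held most of the family's TPM. Nmnat2 (ENSMUSG00000042751, chromosome 1, 152954993 to 153119261, plus strand) reached 91.6, 100.1 and 59.5 TPM in A, B and D, from 4015, 4610 and 4449 counts. It was higher than 85.8% of the genes tested and made up 93.1 ± 0.615% of the family's TPM, a share that hardly moved between libraries even though the level was lowest in D. Nmnat1 (ENSMUSG00000028992, chromosome 4, 149467572 to 149485202, minus strand) stood at 5.65, 6.57 and 4.63 TPM in A, B and D, from 130, 159 and 182 counts, or 6.36 ± 0.743% of the family. Nmnat3 (ENSMUSG00000032456, chromosome 9, 98287435 to 98420438, plus strand) stood at 0.738, 0.577 and 0.293 TPM in A, B and D, from 28, 23 and 19 counts. It was detected in every library but near the bottom of the tested genes, above 2.35% of them. Its exact Poisson intervals (95%, counting error only) ran from 0.490 to 1.07 TPM in A, from 0.366 to 0.866 in B and from 0.177 to 0.458 in D. They leave out the spread between pools, and edgeR did not call the gene (adjusted p = 1.00).

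Nmnat2 exceeded Nmnat1 by 16.2-fold in A, 15.2-fold in B and 12.8-fold in D, with a log2 ratio of 3.88 ± 0.17. It exceeded Nmnat3 by 124-fold, 173-fold and 203-fold, with a log2 ratio of 7.35 ± 0.36. Nmnat3 lay below Nmnat1 by a log2 ratio of -3.48 ± 0.52. Each of the 3 orders was the same in 3 of 3 libraries, far beyond the spread between them (exact p = 0.25 each, the smallest possible, adjusted p = 0.286), and with every treatment of length. With the longest transcript as the length the log2 ratio of Nmnat2 to Nmnat3 was 6.46 and that of Nmnat3 to Nmnat1 -2.46, since 5004 merged exonic bases of Nmnat3 stand against a longest transcript of 2166.

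Sarm1 (ENSMUSG00000050132, chromosome 11, 78472330 to 78497754, minus strand) stood at 16.1, 21.9 and 9.57 TPM in A, B and D, from 689, 983 and 697 counts. No exonic base of it lies in another gene. It was highest in B and lowest in D, a 2.29-fold range. Nmnat2 exceeded it by 5.67-fold in A, 4.57-fold in B and 6.22-fold in D, with a log2 ratio of 2.44 ± 0.23 (3 of 3, exact p = 0.25, adjusted p = 0.286). Nmnat2 itself spanned 1.68-fold. As CPM the log2 ratio was 2.48 and with the longest transcript as the length 2.55, so it barely moved with the treatment of length.

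Of a list of 9 other genes for NAD synthesis, its conversion to NADP or its transport, 6 averaged at least 1 TPM. Nadk, which makes NADP from NAD, averaged 66.4 ± 28.7 TPM and Slc25a51, the mitochondrial NAD carrier gene, 51.3 ± 15.2 TPM. Of the enzymes that make the substrate of the NMNATs, Nampt, the salvage enzyme for nicotinamide, averaged 27.5 ± 9.82 TPM and Nmrk1, for nicotinamide riboside and named for its role after its values were seen, 21.9 ± 1.48 TPM. They did not differ beyond their spread (log2 ratio 0.26 ± 0.51). Nmrk2 had 1 count in B and none in A or D. Qprt, of synthesis from tryptophan, had no counts, which allows up to 0.149, 0.147 and 0.103 CPM in A, B and D (3 counts). Of 7 other NAD consumers 5 averaged at least 1 TPM. Parp1, a DNA damage enzyme, was the highest at 97.8 ± 42.9 TPM, Sirt3 stood at 86.0 ± 3.92 TPM and Sirt2 at 84.5 ± 11.2 TPM. The glycohydrolase genes Cd38 (0.415 ± 0.141 TPM) and Bst1 (0.0288 ± 0.0274 TPM) were the lowest, so of these 3 NAD hydrolase genes Sarm1 alone averaged at least 1 TPM. Of the list for axonal maintenance, breakdown and NMNAT2 handling, 7 of 7 averaged at least 1 TPM. The growth-associated genes Gap43 (8143 ± 167 TPM) and Stmn3 (6514 ± 833 TPM) led, followed by the calpain subunit gene Capns1 (110 ± 14.2 TPM). The calpain inhibitor gene Cast averaged 26.7 ± 12.5 TPM, close to the calpain gene Capn1 at 26.4 ± 9.04 TPM.

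**Figure D4:**
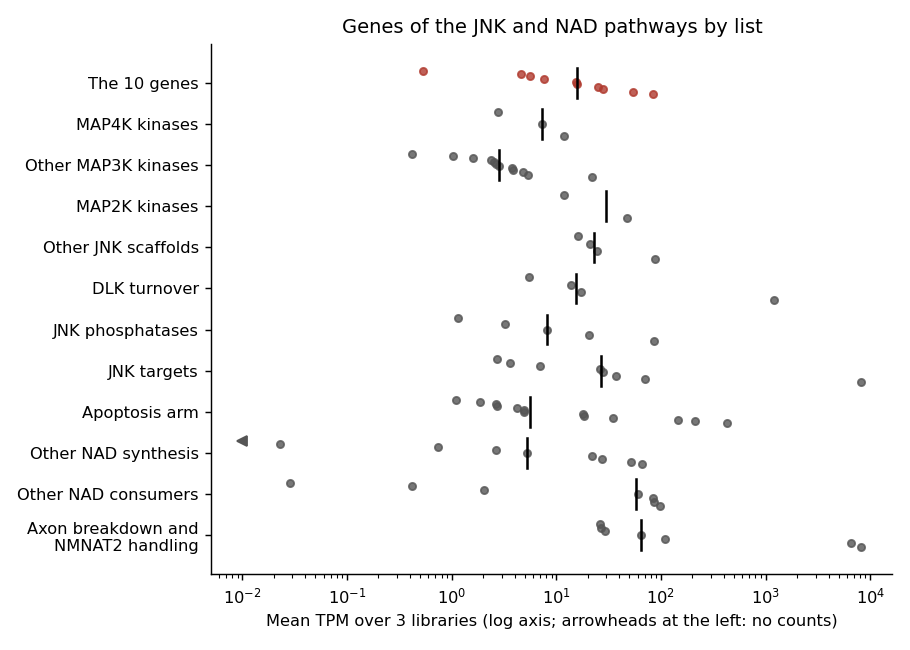
Mean TPM over 3 libraries on a log axis for the 10 genes (red) and for the genes of the 11 pathway lists (grey), 1 dot per gene, with a vertical bar at each list's median. The MAP3K kinases sit lowest as a list, and the arrowhead at the left edge marks Qprt, which had no counts.

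Whether the 10 genes differed between libraries by more than genes of like level was tested with edgeR (goodness of fit of 1 common level, adjusted over 13530 genes). All 10 passed the filter on low counts. None of the 10 was called, against 0.177% of the genes tested (24 genes), and 1 of 10, Map3k12, had an unadjusted p under 0.05, against 6.11% (827 genes). DESeq2's dispersion outliers, 4 genes in all, held none of them either. On the TMM-normalised log2 CPM scale, Map3k12 differed from the mean of its other libraries by 0.67 in A, by 0.78 in B and by -1.45 in D (edgeR adjusted p = 0.758). Only 1.68% of the genes tested lay as low or lower in D. With the trend in gene length removed the difference was -1.29 and the edgeR adjusted p 0.767. Without D, Map3k12 did not pass an unadjusted p of 0.05. The next were Mapk8ip3 at -0.80 in D (-0.78 with the length trend removed), Nmnat3 at -0.75 in D (-0.51 with it removed) and Sarm1 at 0.66 in B and -0.64 in D (0.61 and -0.41 with it removed), each with an edgeR adjusted p of 1.00. The remaining 6 genes lay within 0.44 of the other libraries in each library.

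By TPM, 9 of 10 genes were lowest in D, beside 58.9% of the genes tested, and on that scale the median gene tested stood at -0.34 in D, 0.20 in A and 0.15 in B on the log2 scale relative to the other libraries. On the TMM scale, where that median was near 0, 7 of 10 were lowest in D (all but Map3k13, Mapk8 and Nmnat1), beside 38.8% of the genes tested, and beside 46.6% in the longest and 47.6% in the middle tercile of gene length. With the length trend removed it was the same number, 7 of 10, beside 36.7%. The median difference of the 10 genes in D was -0.40, beside -0.15 in the longest tercile of gene length, and with the length trend removed it was -0.19. No gene of the 10 was called, but only 24 of the 13530 genes tested were, so this does not show like levels. Their low values in D are a description of that library.

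**Figure D5:**
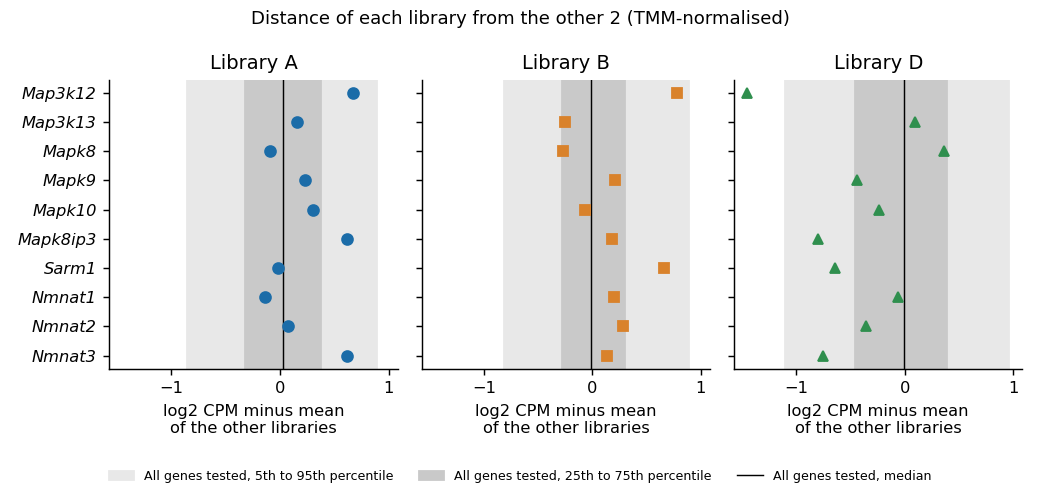
Log2 CPM (TMM-normalised) of each gene, given as its difference from its mean in the remaining libraries, 1 panel per library, with grey bands for the 5th to 95th and 25th to 75th percentiles of the 13530 genes tested and a line at their median. Map3k12 in library D, at -1.45, is the only point outside the wider band.

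The pathway genes beyond the 10 gave no call either. Of 74 genes in the 11 lists 69 could be tested, and none was called, against 0.177% of all genes tested. An unadjusted p under 0.05 came up for 2 of the 69, against 6.11% of all genes tested. They were Map2k4 (edgeR adjusted p = 0.801) and Atf3 (edgeR adjusted p = 0.794). On the TMM-normalised log2 CPM scale Map2k4, the kinase gene directly below DLK, was low in D (-1.22 from the other libraries). Atf3 was highest in B (1.47) and lowest in D (-1.38), from 35, 77 and 25 counts in A, B and D. On the TMM scale 25 of the 69 were lowest in D, near the share among all genes tested.

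The genes nearest to Map3k12, Sarm1 and Nmnat2 in level and pattern were sought among 12513 other coding genes by the largest absolute log2 TPM difference over the 3 libraries. Nearest to Map3k12 were Fam163a (0.04), Ddx20 (0.14) and Tspan15 (0.14). Nearest to Sarm1 were Mapk12 (0.05), Thap1 (0.06) and St6galnac4 (0.10), and nearest to Nmnat2 were Rheb (0.07), Klf10 (0.09) and Ctps (0.09). With 3 libraries many genes match a pattern closely, so these names describe likeness only.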

How the data were processed

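RNA of 3 pooled libraries of sorted dorsal root ganglion cells was measured; per the labels' protocols, 10 ng of RNA was amplified with a SMARTer kit and 12 PCR cycles, without molecular identifiers, so repeated reads of a molecule cannot be told apart. The deposited tables give, from the authors, whole-number counts for each Ensembl gene beside CPM and RPKM, and only the counts entered the results; the submitters' processing notes name Subread, featureCounts 1.4.5 and GRCm38.p2, and no source used here gives the counting settings. That reads in overlapping exons went uncounted, whatever the strand, was read from the counts. Symbols came from GENCODE M21 (40254 of 41388 genes).

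TPM was computed from counts and deposited merged exon lengths. Ratios needed 10 counts of both genes in every library and were tested over libraries by exact permutation of signs, two-sided, with Benjamini-Hochberg adjustment over 8 ratios. Each library pools embryos, so p-values measure the spread between pools. Variation used edgeR 4.0.16 (TMM, filterByExpr, intercept-only fit, trended dispersion, chi-square with 2 degrees of freedom, Benjamini-Hochberg at 0.05), tested on simulated data. Log2 CPM used a prior count of 2. Alternatives included DESeq2 1.42.0, other lengths and normalisations, and leaving out each library.

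The genes and lists were chosen with earlier results of these data known. All 10 genes were named; of each list, up to 5 genes in full or the highest 3 and lowest 2 by mean TPM; genes that share exons with a member were named after their values were seen. A result that this rule names is not reported here. Tools were R 4.3.3, Python 3.11.15, numpy 2.4.6, pandas 2.3.3, scipy 1.17.1 and matplotlib 3.10.9.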

Additional observations from a re-analysis of the deposited data

How the results depend on the processing

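All 8 ratios kept their mean direction under CPM, the longest transcript as length, a pseudocount of 1 TPM, unshared exonic length (chosen after seeing the data) and without each library. The Map3k12 to Map3k13 ratio depended on library D: its log2 mean of 0.56 was 0.39, 0.22 and 1.08 with A, B or D left out. The Mapk9 to Mapk8 ratio, 0.63, was 0.52, 0.47 and 0.90 with the same libraries left out. The median level of the 10 genes, 15.7 TPM, was 19.3 TPM with the longest transcript as length. Levels of 7 of the 10 genes moved by more than 1 SD with it (all but Sarm1, Nmnat1 and Nmnat2). Without mitochondrial and hemoglobin genes the median was 16.3 TPM, and the levels of 10 of 10 genes stayed within 1 SD. The count of genes varying between libraries, 24, was 55 with the length trend removed, 4 as DESeq2 dispersion outliers, and between 2 and 27 when 1 library was left out (7 without A, 2 without B); the cause was not tested. None of the 10 genes was called under any of these edgeR settings, and the smallest adjusted p among them ran from 0.722 to 1.00. Genes with few counts limit precision, above all Nmnat3. No paired analysis was possible because the series has 1 group.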
